A study of Mus musculus with 12 samples.

Results

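A set of 41 cell cycle genes was followed in cultured bone marrow-derived macrophages, which grow out of mouse marrow in a dish. The genes were chosen by symbol, though earlier results of these data were known when the list was made. All 41 of the 41 symbols were found among the 50559 gene symbols of the count table. All 41 also passed the filter on low counts that left 13530 genes for testing. The smallest count of any of them in any library was 256 reads (Ccne2). They fall into 7 genes of G1 (cyclins D, their kinases and 2 kinase inhibitors), 6 genes of the switch from G1 into S phase, 12 genes of DNA replication and 16 genes of G2 and mitosis.

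The cells came from C57BL/6 mice and received either vehicle or an allergen of house dust mite (HDM), in both cases for 1 h, before RNA sequencing. Each treatment has 6 libraries, numbered 1 to 6. The labels name no further allele, agent, age or sex, and no culture conditions. Nothing in them ties a library to an animal, a culture or a pool, so all p-values reflect only how much these samples vary, and that variation may be technical. The series belongs to a study of AKAP79/150, a scaffold protein of innate immune signalling, but the labels of these 12 libraries name no alteration of it.

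A cell enters the cycle when D-type cyclins, made in response to growth factors, switch on CDK4 and CDK6. These kinases phosphorylate the retinoblastoma protein, which frees E2F factors to switch on cyclin E and the replication genes. Cyclin A and cyclin B with CDK1 then drive G2 and mitosis, and the anaphase-promoting complex ends mitosis by destroying them. Bone marrow-derived macrophages divide in culture in response to macrophage colony-stimulating factor and leave the cycle as they mature or are activated by microbial products.

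Counted reads ran from 19.7 to 119.7 M (M, 1e6 reads) per library. The median was 41.1 M for the HDM libraries and 41.7 M for the vehicle libraries. Before any result, the libraries numbered 5 and 6 of both treatments must be set apart: in 15.2% of all tested genes all 4 lay below the other 8, and in 13.7% all 4 lay above. Their depth (19.7 to 46.4 M) lay within that of numbers 1 to 4 (19.8 to 119.7 M), as did the share of mitochondrially encoded reads (0.738 to 0.886% against 0.678 to 1.33%). The labels give the numbers no meaning, and whether they mark animals, cultures or days was not tested. Each result is therefore given by number. Levels are counts per M reads (CPM) scaled with TMM factors, and they are compared between libraries and not between genes.

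The first comparison asked whether 1 h of HDM changed the cell cycle genes. In the fit with treatment as the only term, 1 of the 41 was called, at an adjusted p under 0.05 by edgeR's quasi-likelihood test: Cdkn1b, which encodes the CDK inhibitor p27, was higher with HDM. None was called lower: edgeR gave 0 of 41, with 1 at an unadjusted p below 0.05. That gene, Cdt1, was called lower by DESeq2. Over all tested genes 2.9% were called higher and 2.47% lower, so the share among the members lay near the background. The members' median log2 fold change was -0.0016, beside -0.0048 over all tested genes.

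Both treatments carry the numbers 1 to 6, and libraries of the same number deviated together, with correlations of 0.466 to 0.783 in the 6 pairs. These deviations include the split between numbers 5 and 6 and numbers 1 to 4. Only 3 of 6 libraries of each treatment correlated best with their own number, so the correlations do not show a pairing by number beyond that split. With the number as a block in the fit, 11 of the 41 were called. Of these, 4 rose (Ccnd1, Cdkn1b, Cdc25a and Hmgb2) and 7 fell (Cdt1, Mcm3, Mcm6, Mcm7, Cdc25b, Cdc20 and Cenpa). This fit called 7.9% of all tested genes higher and 6.81% lower. With upper-quartile factors in place of TMM it called 904 genes higher and 1237 lower, against 1069 and 921, while the members' counts were 4 and 8. Of the 11, 7 were called in each of the 6 fits that left out both libraries of 1 number: Ccnd1, Cdkn1b, Cdc25a, Hmgb2, Cdt1, Mcm7 and Cenpa. With the number set (5 and 6, or 1 to 4) as a covariate in place of the block, 7 of the 11 were called, and Ccnd1, Mcm3, Cdc25b and Cdc20 were not.

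Among the G1 genes, Cdkn1b had 14.5, 16.7 and 20.0 CPM with HDM (lowest, median and highest of 6) and 11.0, 12.7 and 14.7 CPM with vehicle. The lowest HDM library, number 2, lay just below the highest vehicle library, number 5, but HDM was above vehicle within each of the 6 numbers. Its log2 fold change was 0.47 ± 0.09 SE (adjusted p = 0.00799, edgeR), and 0.46 ± 0.05 with the block (adjusted p = 1.64e-06). Ccnd1, the cyclin D1 gene, had 365, 546 and 580 CPM with HDM and 342, 501 and 559 CPM with vehicle. The groups overlapped widely because numbers 5 and 6 were low in both, yet HDM was higher in all 6 numbers, by 0.04 to 0.15 on the log2 scale. Its fold change was 0.09 ± 0.16 SE without the block (adjusted p = 0.984) and 0.09 ± 0.02 with it (adjusted p = 0.00981, edgeR). With the number set as a covariate it was not called (adjusted p = 0.0708, edgeR). Ccnd2, Ccnd3, Cdk4, Cdk6 and Cdkn2c, the last the gene of the CDK4 and CDK6 inhibitor p18, were called in neither fit, with log2 fold changes of -0.01 to 0.08.

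At the G1/S switch, Cdc25a, the phosphatase that activates CDK2, had 23.0, 29.5 and 30.7 CPM with HDM and 21.3, 25.5 and 28.2 CPM with vehicle. The groups overlapped, and HDM was higher in all 6 numbers, by 0.03 to 0.27 on the log2 scale. With the block its log2 fold change was 0.16 ± 0.04 SE (adjusted p = 0.00416, edgeR). The cyclin E genes Ccne1 and Ccne2, their kinase gene Cdk2 and the transcription factor genes E2f1 and E2f2 were called in neither fit. Their log2 fold changes ran from -0.0005 to 0.14.

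Among the replication genes, Cdt1, which loads the MCM helicase onto origins together with CDC6, had 74.4, 85 and 99.4 CPM with HDM and 91.9, 105 and 111 CPM with vehicle. The groups overlapped, because the HDM libraries numbered 3 and 4 exceeded the vehicle libraries numbered 5 and 6. Within every number the HDM library was lower, by 0.13 to 0.37 on the log2 scale. Its log2 fold change was -0.26 ± 0.08 SE without the block (adjusted p = 0.0744, edgeR) and -0.26 ± 0.03 with it (adjusted p = 5.5e-06). Mcm7, a subunit gene of that helicase, had 65.7, 103 and 111 CPM with HDM and 74.2, 112 and 121 CPM with vehicle. The groups overlapped, and the HDM library was level with vehicle in number 3 and lower in the other 5 (-0.13 ± 0.03 with the block, adjusted p = 0.00451).

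Mcm6 and Mcm3, of the same helicase, fell by 0.09 ± 0.02 and 0.09 ± 0.03 with the block (adjusted p = 0.0176 and 0.0285, edgeR). These calls were lost without number 1, 2 or 4 and also without number 5 for Mcm6 and number 6 for Mcm3, with adjusted p of up to 0.10 and 0.115. Mcm2, Mcm4 and Mcm5, the licensing factor gene Cdc6, the sliding clamp gene Pcna, the ribonucleotide reductase genes Rrm1 and Rrm2 and the thymidylate synthase gene Tyms were called in neither fit.

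Among the genes of G2 and mitosis, Cenpa, which encodes the histone H3 variant that marks centromeres, showed the largest difference. It had 15.9, 26.8 and 29.3 CPM with HDM and 22.3, 33.2 and 35.4 CPM with vehicle. Numbers 5 and 6 were low in both groups, which made the groups overlap, and HDM was lower in all 6 numbers, by 0.21 to 0.53 on the log2 scale. Its fold change was -0.35 ± 0.18 SE without the block (adjusted p = 0.450, edgeR) and -0.35 ± 0.04 with it (adjusted p = 8.96e-06).

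Hmgb2, a chromatin protein gene of dividing cells, had 19.3, 29.5 and 34.2 CPM with HDM and 17.0, 28.5 and 30.1 CPM with vehicle. HDM was higher in all 6 numbers in spite of the overlap (0.15 ± 0.04 with the block, adjusted p = 0.00837, edgeR). Cdc25b, a phosphatase gene of mitotic entry, and Cdc20, which activates the anaphase-promoting complex, fell by 0.12 ± 0.04 and 0.13 ± 0.04 with the block (adjusted p = 0.0273 and 0.0312, edgeR). The Cdc25b call was lost without number 2, 4 or 5 (adjusted p of up to 0.139), and the Cdc20 call without any number other than 3 (up to 0.0808).

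The other 12 genes of G2 and mitosis were called in neither fit. They are the cyclin genes Ccna2, Ccnb1 and Ccnb2, their kinase gene Cdk1, the Aurora kinase genes Aurka and Aurkb, the spindle checkpoint genes Bub1 and Bub1b, Birc5 (survivin), the centromere motor gene Cenpe, the topoisomerase gene Top2a and the proliferation marker Mki67. Without regard to a test, 4 members were higher with HDM in all 6 numbers (the same 4 that rose with the block) and 5 were lower in all 6 (Cdt1, Cenpa, Cdc25b, Cdc20 and Bub1b). Over all tested genes 8.98% were higher and 8.95% lower in all 6.

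**Figure D1:**
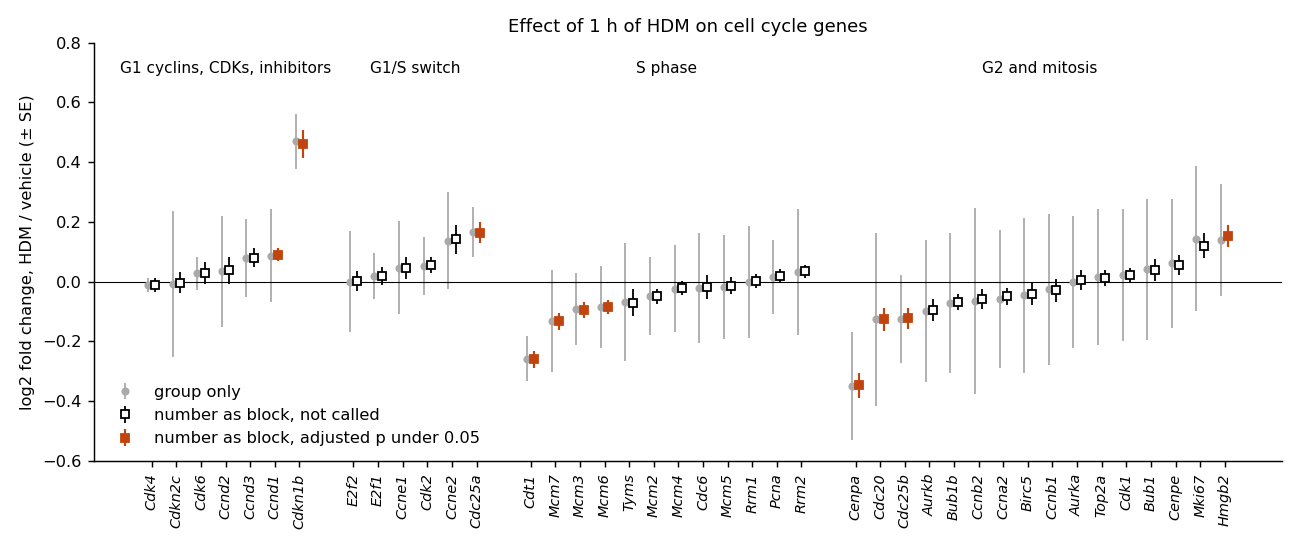
Log2 fold change of HDM over vehicle (± SE) for the 41 genes, by phase, from edgeR with treatment as the only term (grey circles) and with the library number as a block (squares, filled where the adjusted p is under 0.05). Cdkn1b is the highest at 0.46 and Cenpa the lowest at -0.35, and most genes lie close to 0 with wide grey bars.

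Whether the HDM effect differed between numbers 5 and 6 and numbers 1 to 4 was tested as an interaction. Of the 41 genes edgeR called 0, limma-voom 0 and edgeR with the block 0, beside 0.0813% of all tested genes. At an unadjusted p below 0.05 edgeR had 810 of all 13530 tested genes and 2 of the 41. These 2 were Cenpa, whose effect was lower by 0.21 ± 0.08 SE in numbers 5 and 6 (adjusted p = 0.792), and Cdk6, lower by 0.20 ± 0.08 (adjusted p = 0.796).

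The second comparison set the levels in numbers 5 and 6 beside those in numbers 1 to 4. In 36 of the 41 genes all 4 libraries numbered 5 and 6 lay below all 8 others, against 15.2% of all tested genes. In 1 gene, Ccnd2, all 4 lay above, against 13.7% of all tested genes, and 4 genes overlapped (Cdk4, Cdk6, Cdkn1b and Cdt1). Within each treatment taken alone, Cdkn1b was higher and Cdt1 lower in numbers 5 and 6 without overlap. The split of the numbers was noticed in these data earlier, so these counts are a description and no test was made. The median log2 ratio of numbers 5 and 6 over 1 to 4 was -0.66 over the members and 0.0003 over all tested genes. In bulk RNA, fewer dividing cells and less of these transcripts per cell cannot be told apart.

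The ratio fell step by step from G1 to mitosis. Its median was -0.013 for the G1 genes, -0.45 for the G1/S switch, -0.61 for replication and -0.90 for G2 and mitosis. In vehicle libraries alone the last 3 were -0.40, -0.61 and -0.87, and in HDM libraries alone -0.46, -0.59 and -0.91. The summed level of the 16 genes of G2 and mitosis was 655 to 693 CPM in numbers 5 and 6 and 1125 to 1371 CPM in numbers 1 to 4. For the 12 replication genes the sums were 1335 to 1381 and 1907 to 2080 CPM, and for the 6 switch genes 168 to 176 and 213 to 238 CPM. The G1 genes summed to 910 to 917 and 1032 to 1160 CPM, a difference that lay mostly in Ccnd1.

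**Figure D2:**
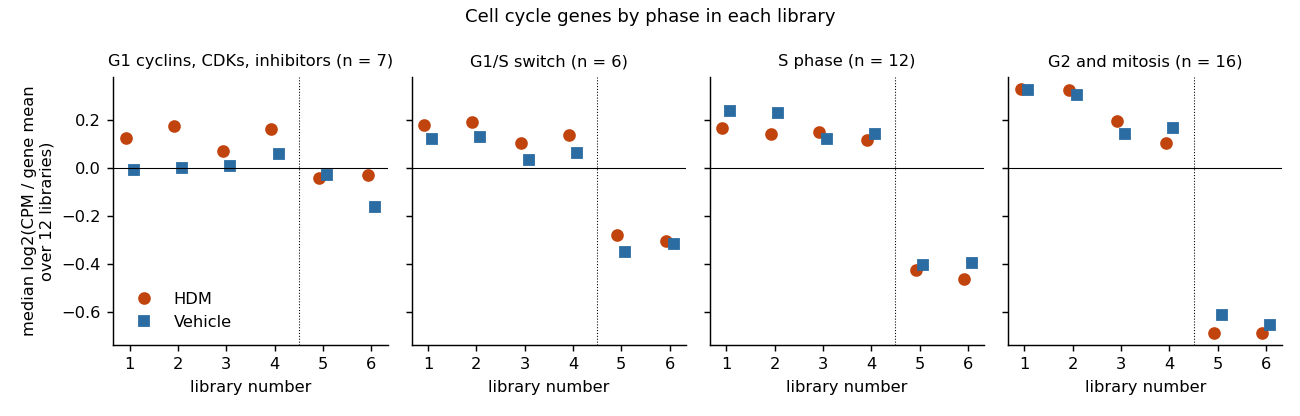
Median over the genes of each phase of log2(CPM / the gene's mean over 12 libraries), by library number, for HDM and vehicle. Numbers 5 and 6 lie below 0 in all panels and lowest in G2 and mitosis (-0.69 to -0.61), where numbers 1 and 2 (0.31 to 0.33) also lie above numbers 3 and 4 (0.10 to 0.20).

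The G1 genes moved in different directions. Ccnd1 had 365 and 379 CPM in the HDM libraries numbered 5 and 6, 342 and 352 CPM in the vehicle ones, and 495, 546 and 580 CPM (lowest, median and highest) in the other 8. Ccnd2, the gene of a second D-type cyclin, was the reverse: 23.6 and 23.4 CPM with HDM and 22.8 and 22.8 CPM with vehicle, against 12.4, 15.8 and 20.9 CPM in the other 8. Ccnd3, the third, resembled Ccnd1, at 27.0, 26.4, 25.3 and 26.7 CPM against 33.2, 36.3 and 40.8 CPM. So all 3 cyclin D genes separated the number sets without overlap, 2 of them lower and 1 higher in numbers 5 and 6.

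Their kinase genes did not separate. Cdk4 had 122, 123, 126 and 127 CPM in numbers 5 and 6 (HDM first) and 124, 125 and 131 CPM in the others, a log2 ratio of -0.01. Cdk6 had 340, 328, 361 and 357 CPM against 306, 317 and 375 CPM. The inhibitor genes differed from each other. Cdkn1b had 20.0 and 20.0 CPM with HDM and 14.7 and 13.4 CPM with vehicle in numbers 5 and 6, against 11.0, 13.6 and 17.0 CPM, a log2 ratio of 0.28. It overlapped only with both treatments pooled: within each treatment numbers 5 and 6 lay above numbers 1 to 4. Cdkn2c had 16.4, 16.9, 17.0 and 18.5 CPM against 29.8, 33.2 and 37.0 CPM, a log2 ratio of -0.95 and the lowest in G1.

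**Figure D3:**
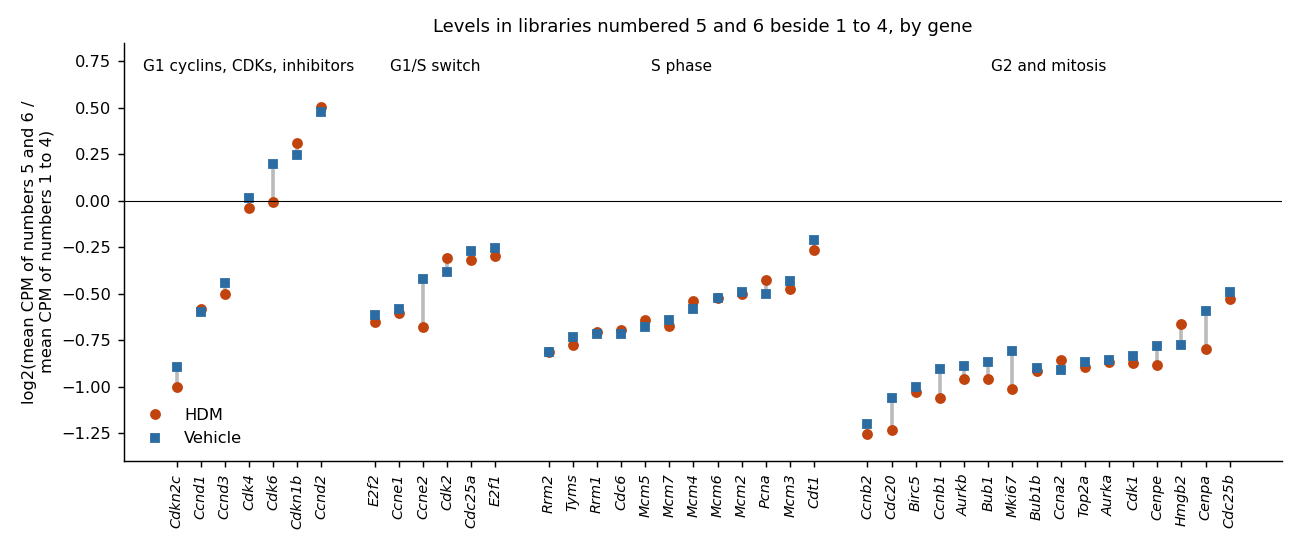
Log2 ratio of the mean CPM in numbers 5 and 6 over that in numbers 1 to 4 for each of the 41 genes, by phase, within HDM and within vehicle. All genes of the switch, replication and mitosis lie below 0, from Cdt1 at -0.24 to Ccnb2 at -1.23 as the mean of both treatments, while the G1 genes run from -0.95 (Cdkn2c) to 0.49 (Ccnd2).

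All 6 switch genes were lower in numbers 5 and 6 without overlap. Ccne1 had 21.3 and 19.8 CPM with HDM and 20.1 and 20.0 CPM with vehicle there, against 29.1, 30.2 and 32.7 CPM in the other 8. E2f2 had the lowest ratio of this group, -0.63 on the log2 scale, with 23.3, 22.8, 23.6 and 23.3 CPM against 32.5, 36.5 and 39.8 CPM. E2f1 had the smallest, -0.28, with 55.6, 52.8, 54.0 and 55.2 CPM against 64.0, 65.4 and 69.4 CPM. Ccne2, Cdk2 and Cdc25a lay between them.

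Of the 12 replication genes 11 were lower without overlap. Rrm2, the regulated subunit gene of ribonucleotide reductase, had 80.5 and 83.0 CPM with HDM and 81.7 and 77.9 CPM with vehicle in numbers 5 and 6, against 133, 142 and 153 CPM. Its log2 ratio of -0.81 was the lowest of the group. Mcm6 had 216, 215, 232 and 226 CPM against 301, 316 and 339 CPM. Cdt1 was the exception that overlapped with both treatments pooled: its vehicle libraries numbered 5 and 6 (94.5 and 91.9 CPM) lay above the HDM libraries numbered 1 and 2 (85.2 and 84.8 CPM). Within each treatment, however, numbers 5 and 6 lay below numbers 1 to 4. With HDM they had 77.6 and 74.4 CPM.

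All 16 genes of G2 and mitosis were lower without overlap, with log2 ratios from -1.23 to -0.51. Ccnb2, a cyclin B gene, had 16.5 and 15.5 CPM with HDM and 18.7 and 15.6 CPM with vehicle in numbers 5 and 6, against 33.3, 38.8 and 45.7 CPM. Cdc20 had 12.4, 12.2, 15.4 and 14.1 CPM against 26.0, 29.6 and 33.6 CPM. Cdk1 had 53.9, 54.9, 54.0 and 54.9 CPM against 90.6, 97.1 and 106 CPM. Each stood close together within the 4 libraries and apart from the other 8.

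Top2a, which untangles replicated chromosomes, had 147, 144, 145 and 147 CPM against 244, 274 and 290 CPM. Mki67, the gene of the Ki-67 antigen, had 154, 148, 159 and 148 CPM against 234, 290 and 364 CPM, the highest being HDM library 2. Cdc25b had the ratio nearest to 0 in this group, -0.51, and the remaining 10 genes lay between Ccnb2 and Cdc25b.

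**Figure D4:**
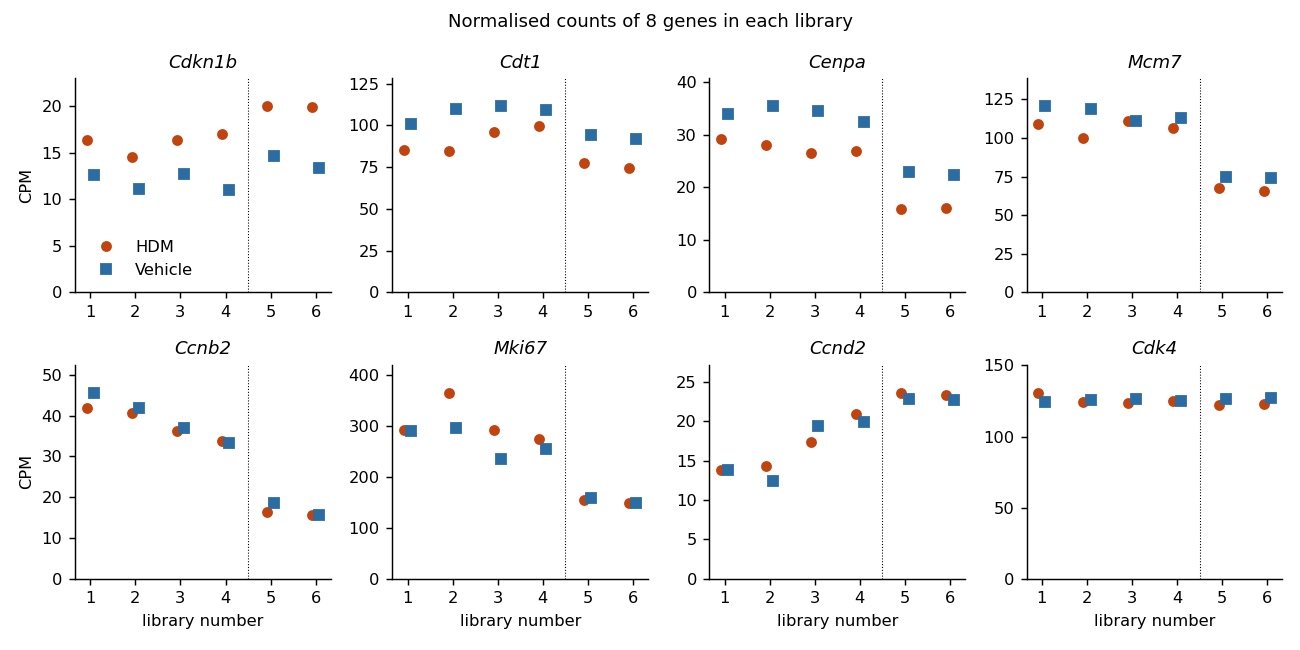
TMM-scaled CPM of 8 genes in the HDM and vehicle library of each number. Mki67 and Ccnb2 drop at numbers 5 and 6 in both treatments, Ccnd2 is highest there, Cdk4 is level, and in Cdkn1b, Cdt1 and Cenpa the treatments part within the numbers.

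A smaller step separated numbers 1 and 2 from 3 and 4. This split was not among the planned comparisons, so its counts are a description and no test was made. In 19 of the 41 genes the 4 libraries numbered 1 and 2 all lay above the 4 numbered 3 and 4. Over all tested genes the share was 7.54%. In Ccnd2 the 4 numbered 1 and 2 all lay below, as in 828 of the 13530 tested genes. Of the 19, 11 belong to G2 and mitosis, 5 to replication, 2 to the switch and 1 to G1. The median log2 ratio of numbers 1 and 2 over 3 and 4 was 0.17 for G2 and mitosis. It was 0.051 for replication, 0.068 for the switch and 0.015 for G1. The summed level of the genes of G2 and mitosis was 1289 to 1371 CPM in numbers 1 and 2 and 1125 to 1207 CPM in numbers 3 and 4. Ccnd2 thus ran opposite to the mitotic genes in both steps, at 12.4 to 14.3 CPM, 17.4 to 20.9 CPM and 22.8 to 23.6 CPM in the 3 pairs of numbers.

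**Figure D5:**
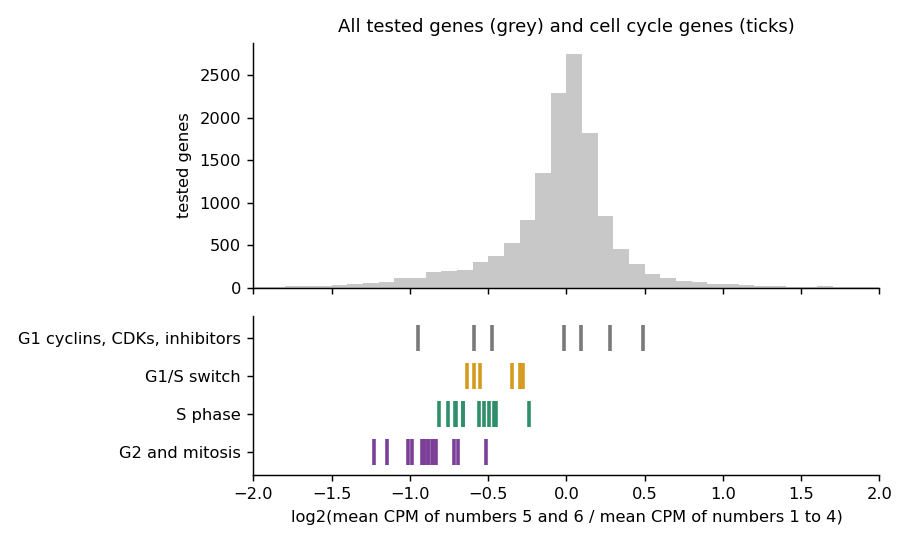
Histogram of the log2 ratio of numbers 5 and 6 over 1 to 4 for the tested genes (top, with 84 genes outside the axis or without a finite ratio left out) and the 41 cell cycle genes as ticks by phase (bottom). All tested genes centre on 0, and the ticks of G2 and mitosis lie between -1.23 and -0.51.

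Nearly all members of the switch, replication and mitosis were lower in numbers 5 and 6, while those of G1 were not alike, so promoters of the phases are set side by side. Of the 41 genes, 35 had an entry in the RefSeq promoter table (GRCm38.p6, 250 bases before to 50 after each start), with 39 promoters in all. The 6 without an entry were Ccnd1, Ccnd2, Ccne2, Mcm4, Ccna2 and Aurkb. Short words of different kinds are known from such genes: E2F-type words in genes of G1/S, and the pair of CCAAT boxes, bound by NF-Y, with a CHR element (TTTGAA or a close form) in genes of G2 and mitosis. The following 4 promoters are from the mitotic genes described above, and 2 are from MCM genes. Each is printed 5′ to 3′ along the gene's own strand, with in capitals the words of either strand: the CCAAT box, the CHR form TTTGAA and the E2F-type words.
Cdk1, chr10:69352913-69353012, minus strand, the 100 bases before the start: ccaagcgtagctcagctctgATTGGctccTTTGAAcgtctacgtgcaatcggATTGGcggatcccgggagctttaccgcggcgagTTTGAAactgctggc
Ccnb2, chr9:70421540-70421654, minus strand, 100 bases before to 15 after the start: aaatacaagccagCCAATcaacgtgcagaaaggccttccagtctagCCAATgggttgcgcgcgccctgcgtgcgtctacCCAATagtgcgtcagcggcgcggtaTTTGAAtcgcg
Cdc20, chr4:118437344-118437423, minus strand, the 80 bases before the start: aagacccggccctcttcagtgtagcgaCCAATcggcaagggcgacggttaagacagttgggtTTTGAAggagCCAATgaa
Top2a, chr11:99024190-99024299, minus strand, the 110 bases before the start: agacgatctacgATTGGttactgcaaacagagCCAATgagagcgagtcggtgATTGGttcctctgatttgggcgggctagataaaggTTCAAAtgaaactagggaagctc
Mcm6, chr1:128359706-128359825, minus strand, the 120 bases before the start: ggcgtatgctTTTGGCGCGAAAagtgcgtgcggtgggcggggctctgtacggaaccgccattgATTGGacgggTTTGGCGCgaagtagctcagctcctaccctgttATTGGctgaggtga
Mcm5, chr8:75109349-75109508, plus strand, the 160 bases before the start: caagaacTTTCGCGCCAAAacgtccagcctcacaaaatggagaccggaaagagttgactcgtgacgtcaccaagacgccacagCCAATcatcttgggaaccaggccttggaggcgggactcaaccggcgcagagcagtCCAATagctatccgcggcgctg

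The printed promoters and the length of each stretch were chosen as examples, so what they hold is not a count over the phase. The 4 mitotic promoters each held at least 2 CCAAT boxes and at least 1 TTTGAA. The 2 MCM promoters also held 2 CCAAT boxes each, with overlapping E2F-type words and no TTTGAA. Counted over all promoters of the phase, 13 of 14 promoters of G2 and mitosis held CCAAT (92.9%), against 37.4% of all promoters of the same length and 37.6% of those of tested genes. At least 2 were in 10 of them (71.4%, against 11.7% and 14.1%). CCAAT was also in 9 of 12 replication promoters (75%), 4 of 6 of the switch (66.7%) and 3 of 7 of G1 (42.9%). At least 2 were in 41.7%, 33.3% and 14.3% of these. TTTGAA was in 9 of the 14 promoters of G2 and mitosis (64.3%), against 17.9% of all promoters and 12.4% of those of tested genes. It was in 1 of 12 replication promoters (8.33%), in 1 of 6 of the switch and in 0 of 7 of G1. The close form TTCGAA and the other close form, TTTAAA, were in 28.6% and 35.7% of the promoters of G2 and mitosis, against 1.56% and 13.2% of all and 2.08% and 9.17% of those of tested genes.

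The E2F-type words searched were TTTCCCGC, TTTGGCGC, TTTCGCGC (the reverse complement of GCGCGAAA) and TTTGGCGG, on both strands, and they can overlap. At least 1 was found in 6 of 12 replication promoters and 3 of 6 of the switch, in 1 of 14 of G2 and mitosis and in 0 of 7 of G1, against 2.37% of all promoters and 4.18% of those of tested genes. The word GGCGCC, of cell cycle promoters too and part of some E2F matches, was in 5 of 7 G1 promoters (71.4%, against 11.9% of all promoters and 19.7% of those of tested genes). These 7 promoters belong to 5 genes, without Ccnd1 and Ccnd2. GGCGCC was also in 33.3% of the promoters of the switch, 16.7% of replication and 21.4% of G2 and mitosis. Among genes of the anaphase-promoting complex, listed below, it was in 57.1%. A match is a run of letters in a window and not a measured binding site.

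Cell cycle genes outside the 41 were grouped in 4 further lists, all of whose genes passed the filter. The shares over all tested genes to set beside their counts are 2.9% higher and 2.47% lower with HDM, 7.9% and 6.81% with the block, and, for numbers 5 and 6, 15.2% lower and 13.7% higher without overlap. Of 28 genes of G1 and of E2F and retinoblastoma control, 4 rose with HDM by edgeR and 0 fell (1 lower at an unadjusted p below 0.05, 0 with DESeq2 or limma-voom, and 7 up and 1 down with the block). Cdkn1a, which encodes the CDK inhibitor p21, had 387 ± 18.3 CPM with vehicle and 535 ± 16.9 CPM with HDM (SD over 6 libraries). Its log2 fold change was 0.47 ± 0.04 SE (edgeR, adjusted p = 3.32e-06). The other 3 were Lin54 and Lin52, of the complex that binds CHR elements, and Cdkn2b (p15), which went from 0.850 ± 0.188 to 1.45 ± 0.318 CPM (adjusted p = 0.0333, edgeR). Lin54 rose by 0.16 ± 0.04 SE and Lin52 by 0.26 ± 0.07 on the log2 scale (adjusted p = 0.0221 and 0.0497, edgeR). The Lin54 call was lost without vehicle 1 (adjusted p = 0.0525), that of Cdkn2b without any of 9 libraries, all but HDM 4, HDM 5 and vehicle 3 (up to 0.0751), and that of Lin52 without any of 10, all but HDM 3 and vehicle 6 (up to 0.108). In numbers 5 and 6, 11 of the 28 were lower without overlap (39.3%, against 15.2% of all tested genes) and 1 was higher. The lowest ratios were those of the late E2F repressor genes E2f7 (-0.84) and E2f8 (-0.83), and the highest those of the inhibitor genes Cdkn1c (0.90) and Cdkn2a (0.38).

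Of 41 further replication genes edgeR called 0 for HDM (1 at an unadjusted p below 0.05, 0 with DESeq2 and 0 with limma-voom) and 5 with the block, 1 higher and 4 lower, against 7.9% and 6.81% of all tested genes. The smallest p were those of Ung, a DNA repair glycosylase gene, at a log2 value of -0.30 ± 0.12 SE (edgeR, adjusted p = 0.236 without the block and 0.0031 with it), and Rfc2, of the clamp loader, at -0.09 ± 0.05 (adjusted p = 0.396, and 0.0405 with the block). In numbers 5 and 6, 35 of the 41 were lower without overlap and 0 higher, with a median log2 ratio of -0.49. Tk1, the thymidine kinase gene, was lowest (-0.99), then Rad51ap1 (-0.85), while the polymerase subunit gene Pold3 (-0.08) was among those nearest to 0.

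Of 53 further genes of G2 and mitosis 1 fell with HDM by edgeR and 0 rose (0 higher at an unadjusted p below 0.05, 0 with DESeq2 or limma-voom, and 5 down and 3 up with the block). It was Wee1, whose kinase holds CDK1 inactive, at 39.1 ± 1.00 CPM with vehicle and 29.2 ± 2.11 CPM with HDM (SD over 6 libraries), and lower with HDM in all 6 numbers. Its log2 fold change was -0.42 ± 0.05 SE (edgeR, adjusted p = 8.26e-05). In numbers 5 and 6, 50 of the 53 were lower without overlap, with a median log2 ratio of -0.84, close to the -0.90 of the 16 members. Kif20a (-1.16) and Ube2c (-1.13) were the lowest, and Gas2l3 (0.33, the 1 gene higher without overlap) and Pttg1 (0.02) the highest. In their promoters TTTGAA was found in 35 of 51 (68.6%), and in 7 of 35 of the further replication genes (20%).

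Of 13 genes of the anaphase-promoting complex and its regulators 1 fell by edgeR and 0 rose (1 higher at an unadjusted p below 0.05, 0 with DESeq2 or limma-voom, and 2 down and 0 up with the block). Anapc7, a subunit gene, fell by 0.15 ± 0.03 on the log2 scale (adjusted p = 0.00701, edgeR). The second, with the block, was Fbxo5, whose product EMI1 inhibits the complex, at -0.57 ± 0.25 without the block (adjusted p = 0.306) and -0.57 ± 0.05 with it (adjusted p = 2.39e-07, edgeR). The 13 genes had a median log2 ratio of -0.07 between the number sets, with Fbxo5 (-0.97) and Fzr1 (-0.26) lowest and Anapc4 highest (0.12).

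Macrophage markers were present in all libraries: all 12 passed the filter and 0 were called for HDM by edgeR (0 at an unadjusted p below 0.05, 0 with DESeq2, limma-voom or the block). Their summed level, led by the lysozyme gene Lyz2, was 26662 to 27254 CPM in numbers 5 and 6 and 23695 to 28068 CPM in the others. Csf1r, the gene of the receptor for macrophage colony-stimulating factor, had a log2 ratio of 0.07, and its levels overlapped. Of the 12, 5 were lower without overlap, among them Adgre1, the gene of the F4/80 antigen (-0.86), and Aif1 (-1.79). The 3 higher without overlap were Lgals3 (0.61), Ctss (0.59) and Cd68 (0.37), opposite to most cell cycle genes. Over all tested genes 15.2% were lower and 13.7% higher, and the part of these markers in the difference was not tested.

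Summed markers of some other cells also differed between the number sets, while those of others overlapped. The 8 dendritic cell markers summed to 195 to 202 CPM in numbers 5 and 6 and 79.8 to 142 CPM in the others, nearly all from Itgax, which macrophages also express. The 9 progenitor markers summed to 4.04 to 4.52 CPM against 1.54 to 2.68 CPM. Kit (2.07 to 2.26 CPM against 0.145 to 0.399 CPM) and Gata2 (1.14 to 1.34 CPM against 0.222 to 0.839 CPM) were higher without overlap, while Cd34 overlapped and had a log2 ratio of -0.40. The 4 monocyte markers, led by Ccr2, summed to 2.81 to 3.31 CPM against 3.99 to 10.4 CPM, and the 7 erythroid and megakaryocyte markers, nearly all Pf4, to 97.4 to 109 CPM against 167 to 197 CPM. Neutrophil markers, led by S100a8, summed to 5.37 to 6.55 CPM against 3.56 to 6.57 CPM, and those of stroma and endothelium, led by Pecam1, to 2.11 to 5.28 CPM against 3.77 to 6.90 CPM. Of the latter, the collagen genes Col1a1 and Col1a2 fell with HDM in the fit with the block, at log2 values of -1.19 ± 0.23 SE and -0.84 ± 0.27 (adjusted p = 0.00141 and 0.0485, edgeR), from means of 1.11 and 0.931 CPM with vehicle. Their part in the HDM comparison was not tested. Lymphocyte markers stayed at or below 0.213 CPM and those of mast cells and basophils at or below 0.0502 CPM in sum. Globin genes Hba-a1 and Hbb-bs had 0 reads. The part of these cells in the result was not tested.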

How the data were processed

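Poly(A) RNA of 12 libraries was sequenced from a stranded kit, per the labels' protocols. The deposited values are raw read counts per gene symbol, not scaled by the authors. The submitters' processing notes name these tools, with no order: featureCounts 2.0.6, Subread, STAR 2.6.0c, cutadapt 4.5, FastQC 0.12.1, Trim Galore 0.6.10. They list GRCm38 and mm39 without a role for either. The strand setting of the counting is not given in the sources used here, nor is the annotation. Reads of Pcna, Ccnb1, Tyms and Ccnd3 could be shared with pseudogenes, whose counts were 1025, 58, 5 and 6 beside 271342, 22679, 13316 and 19270.

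Counts were tested with edgeR 4.0.16 (limma 3.58.1, R 4.3.3): TMM factors, filterByExpr, quasi-likelihood F test with treatment as the only term, two-sided, Benjamini-Hochberg adjustment over 13530 genes, called at an adjusted p under 0.05. The scripts were tested on simulated data. SE is the log2 fold change over the square root of F. Same-numbered libraries correlated above 0.1 in all 6 pairs (deviations of log2(CPM + 0.5)), so the number was also fitted as a block. This pairing rests on the data, not the labels, and 3 of 6 libraries of each group correlated best with their own number. The split between the number sets was left in the deviations, so they do not show pairing beyond the set. Levels between number sets were described without a test. DESeq2 1.42.0, limma-voom, other factors, filters and left-out libraries were alternatives. Named genes are all 41, and of the other cell cycle lists up to 2 called rises and 2 called falls with the smallest p (or, with none called, the 2 with the smallest p) and the 2 highest and 2 lowest number-set ratios. Of marker lists the highest gene is named. A gene that this rule picks is not reported here, though the counts include it. Genes beyond this rule (Lin52 and Cdkn2b, Fbxo5's HDM values, Csf1r, Adgre1, Aif1, Lgals3, Ctss, Cd68, Kit, Gata2, both collagen genes, the globins) were named after their values were seen. The members and lists were chosen with earlier results of these data known.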

Additional observations from a re-analysis of the deposited data

Results flagged for a closer look

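Among the 82 sets of 6 values checked (41 genes in each treatment), 1 was marked for a library far from the others. Cdk4 had 130.9 CPM in HDM library 1 and 121.9 to 124.8 CPM in the other 5 HDM libraries, a gap of 0.676 of the whole range, above the bound for 6 values (Dixon's test). This is also the deepest library. About 1 in 20 such sets would be marked by chance if all 6 values shared 1 spread. In 36 of the 41 genes, however, numbers 5 and 6 all lay below the others, which widens the range. For these genes that rate does not hold, and an unmarked set does not show that no library stood apart. Mki67 had 364 CPM in HDM library 2 and 274 to 292 CPM in HDM libraries 1, 3 and 4. That set was not marked.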

How the results depend on the processing

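With treatment as the only term, 1 member was called higher and 0 lower. The fit with a replicate block gave 4 and 7, with the number set as a covariate 3 and 4, within numbers 1 to 4 alone 2 and 2, and within numbers 5 and 6 alone 2 and 3. DESeq2 called 1 lower (Cdt1). Leaving out 1 library in turn gave 0 to 1 lower, the 1 being Cdt1 without HDM 4 or vehicle 6. Leaving out both libraries of 1 number in the blocked fit gave 4 to 6 higher and 3 to 7 lower. Of 984 recomputed member values none reversed a called direction, 26 gained a call and 151 uncalled values changed sign. Only Cdkn1b was called to begin with, so only its values could lose a call, and none did. With HDM or vehicle libraries alone, 2 and 4 members were all higher in numbers 5 and 6, against 1 with both. The G1 median ratio turned to 0.015 with vehicle libraries alone (-0.013 with both), and the ratio of Cdk6 to -0.0074 with HDM libraries alone (0.094 with both). The count of 36 lower members was the same under every scaling and left-out library. Depth limited no member, since each had at least 256 reads in every library.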

Other observations

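Of the centromere genes, Hjurp, which encodes the chaperone that deposits CENP-A and which was named after its values were seen, had 57.5 ± 13.4 CPM with HDM and 68.8 ± 15.2 CPM with vehicle (SD, n = 6 each). Its log2 fold change was -0.26 ± 0.18 SE without the block (adjusted p = 0.660, edgeR) and -0.26 ± 0.03 with it (adjusted p = 1.73e-06), and HDM was lower in all 6 numbers, as it was for Cenpa. Over all tested genes 8.95% were lower in all 6. The centromere motor gene Cenpe was not among them, at 0.06 ± 0.03 with the block (adjusted p = 0.312, edgeR), higher in 3 numbers and lower in 3. Whether Hjurp and Cenpa respond together was not tested.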
